A study of Nicotiana tabacum with 12 samples.

Results

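The leaf transcriptome of the tobacco line L16 was compared with that of the line L15, using the 3 libraries labelled L16 and the 3 labelled L15, which are 6 of the 12 libraries of the study. Every gene that differed was then placed by the 3 wild type libraries, and the 3 libraries of the remaining line L14 served as a further reference. The L14 and wild type libraries also entered the filter on low counts, the scaling, and the estimate of the spread. L14, L15, and L16 are *Nicotiana tabacum* cultivar Xanthi NN plants that carry *DcLCYB1*, the carrot gene of lycopene β-cyclase, and the wild type is the same cultivar without it. All 4 genotypes were raised from seed on plates that contained sucrose and, as the labels state for wild type and lines alike, kanamycin, and RNA was taken from leaves at 5 weeks of age. The labels give the generation of the plants as T4 in one field and T3 in another. Each genotype had 3 biological replicates. A transgenic line descends from a single transformation event, so that a difference between L16 and L15 belongs to these lines with their separate insertions and histories, and the effect of the transgene alone cannot be read from it.

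Lycopene β-cyclase is a plastid enzyme that closes the rings at the ends of lycopene and so makes β-carotene. β-Carotene protects the photosynthetic apparatus from light damage, and it is the source of part of the xanthophylls and, through these, of abscisic acid, a hormone of drought and salt responses. Independent lines with the same transgene commonly differ in how strongly it is expressed, because the place of insertion differs. The carrot transcript was not among the identifiers analysed here, so its level in L15 and L16 is unknown. The counts are listed by NiTAB 4.5 identifier, and 0 of these identifiers were found in the RefSeq gene table at hand, so that no gene names or pathways are given here. The leaf label could not be checked against marker genes for the same reason. Identifiers are printed for 4 genes, 2 of each direction, and the other genes are described by their values.

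The QuantSeq 3' mRNA-Seq kit reads the end of a transcript next to its poly(A) tail, so that a count does not grow with transcript length. The reads counted on genes ranged from 16786444 to 18177338 per library in L16, from 13032294 to 21067852 in L15, and from 12887911 to 24343174 in the wild type. At these depths 3 counts, taken as the limit of detection, correspond to between 0.142 and 0.230 CPM in L15 and between 0.165 and 0.179 CPM in L16. CPM is the count of a gene scaled by the size of its library, and these limits cover counting error only. L16 and L15 did not differ detectably in gene total (two-sided exact permutation test, p = 0.9), in the share of reads outside annotated genes (34.5% ± 1.02 and 35.7% ± 0.964, SD, n = 3, exact p = 0.3), in the share of alignments that were not unique (exact p = 0.5), or in the share taken by the 20 most-counted genes (exact p = 0.8). The smallest p that 3 against 3 libraries allow is 0.1. In each of the 4 genotypes, no pair of replicates agreed within sampling noise, so that each library counts as 1 sample.

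Of 18823 genes tested, 134 (0.712%) passed edgeR's quasi-likelihood test for a difference between L16 and L15, with a Benjamini-Hochberg adjusted p-value threshold of 0.05. They are named the differing genes in what follows. Of them, 93 were higher (0.494% of the tested genes) and 41 were lower in L16 (0.218%). The median absolute log2 fold change was 1.47 for the higher genes and 0.92 for the lower genes, against 0.23 over all tested genes. The test requires a larger change where the error is larger, and the median standard error was 0.25 for the higher and 0.18 for the lower genes. Over all tested genes the median standard error was 0.29 for those estimated higher and 0.27 for those estimated lower. Their median absolute log2 fold changes were 0.24 and 0.23. At least a 2-fold difference was seen in 70 of the 93 higher and 13 of the 41 lower genes, where 5.42% of all tested genes had an estimate of that size. At least a 4-fold difference was seen in 19 higher genes and in 0 lower genes, and 6 higher genes exceeded 8-fold. Of all tested genes, 9446 were estimated higher and 9377 lower in L16. Among these, 556 and 464 had an estimate of at least 2-fold, 75 and 43 of at least 4-fold, and 15 and 12 of at least 8-fold. The largest increase among the differing genes was a log2 fold change of 4.46, and the largest decrease was -1.74. Over all tested genes the largest absolute log2 fold change was 4.46 for those estimated higher and 6.02 for those estimated lower. At an unadjusted p under 0.05, 1986 genes (10.6%) differed. RNA was taken from whole leaves, so that more cells of a type and more RNA per cell cannot be told apart.

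The number of differing genes depended on single libraries. Without L15 replicate 2, 21 genes differed (18 higher, 3 lower in L16), and without L15 replicate 1, 30 genes did (24 higher, 6 lower). Without L16 replicate 2 there were also 30 genes (26 higher, 4 lower), and without L16 replicate 1 there were 72 (58 higher, 14 lower). Without L15 replicate 3 and without L16 replicate 3 the lower genes numbered 26 and 23. The cause of these differences was not tested. In every fit that left out a library, all 134 genes kept their direction. The L16 and L15 libraries did not overlap in 133 of these genes. Their direction was thus nearly fixed by the choice of genes, and nothing is read from it. In all 12 such fits 20 of the 134 genes were called, of which 18 were higher and 2 lower in L16, and their smallest absolute log2 fold change was 0.96. Counts were also simulated for this comparison, with 200 changed genes among 18366 tested, all drawn from genes with a mean above 1 CPM. The test found 42% of the 2-fold and 84% of the 4-fold changes, so that a gene not called here may still differ. Changes in genes with lower means were not simulated.

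**Figure D1:**
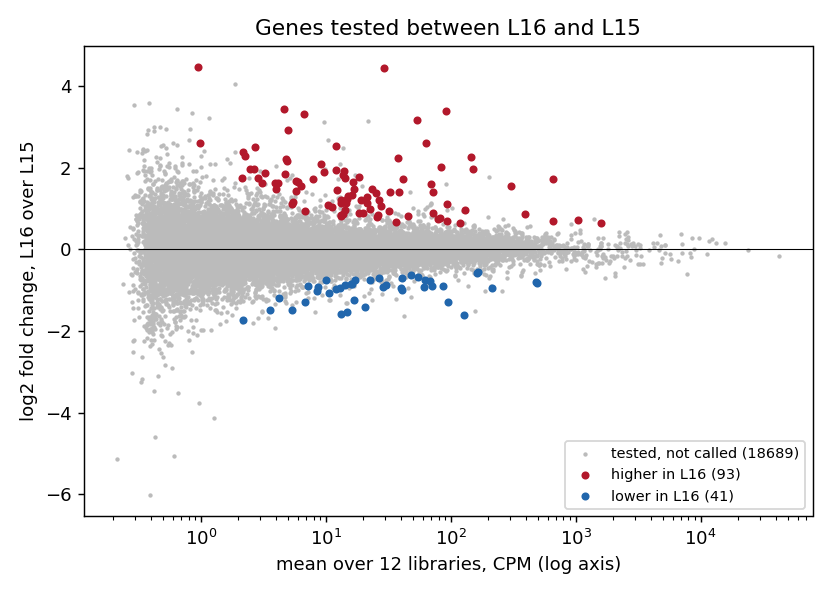
Each point is a tested gene, with its mean level over the 12 libraries in CPM on a log axis and its log2 fold change of L16 over L15. The 93 genes higher in L16 (red) reach a log2 fold change of 4.46, while the 41 lower genes (blue) end at -1.74, and some genes not called (grey) have larger decreases at low levels.

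The differing genes lay mostly above the median level of the tested genes, and the genes with the highest levels were not among them. In the mean of the L15 and L16 libraries their levels ran from 1.47 to 1850 CPM, with a median of 20.5 CPM against 4.81 CPM over all tested genes, whose highest level was 39472 CPM. Among the tested genes under 2 CPM, 2 of 6027 differed (0.0332%), while 35 of 5957 between 2 and 10 CPM (0.588%), 59 of 4319 between 10 and 50 CPM (1.37%), and 38 of 2520 above 50 CPM (1.51%) did. In all, 1020 tested genes had an estimated difference of at least 2-fold, of which 83 were called and 937 were not. Of these 937 genes, 760 had a mean under 2 CPM. The median standard error of the 937 genes was 0.68 on the log2 scale, against 0.28 for the 83 called genes, so that a difference of this size was not detectable in many low genes at this depth. The smallest changes were called at high levels, with a median absolute log2 fold change of 1.63 between 2 and 10 CPM and 0.93 above 50 CPM. No differing gene was without counts in all libraries of a line. The test left the last gene inside the threshold at an adjusted p-value of 0.0484 (log2 fold change -0.75) and the first outside it at 0.0513 (log2 fold change -1.14), both lower in L16.

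For the differing genes, the overlap of the libraries was counted. In 133 of the 134 genes the 3 L16 libraries and the 3 L15 libraries did not overlap, 92 of the 93 higher and all 41 lower genes, where 17.2% of all tested genes showed no overlap (8.18% higher and 9.02% lower in L16). In the remaining gene the L15 libraries lay at 28.6, 27.8, and 36.8 CPM and the L16 libraries at 98.7, 110, and 36.2 CPM, so that L16 replicate 3 fell just under L15 replicate 3. In 117 of the 134 genes all 3 L16 libraries lay outside the range of the other 9 libraries, 87 above it and 30 below it, where 6.85% of all tested genes did (3.78% above and 3.07% below). The choice of the genes used the 6 libraries of L15 and L16. The count of 133 genes without overlap was thus nearly fixed by it, and nothing is read from that count. For the count of 117 genes, the choice used 6 of the 12 libraries, and no test was made of it.

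Per library, the 93 higher genes had a median level, on the log2 CPM scale and relative to the wild type mean, of 0.26, 0.15, and 0.44 in the L15 libraries and of 1.71, 2.13, and 1.69 in the L16 libraries. Summed, these genes took 5441, 5599, and 6193 CPM in the L15 libraries and 11212, 13518, and 12730 CPM in the L16 libraries. The 41 lower genes had medians of -0.09, -0.03, and -0.19 in the L15 libraries and of -1.13, -1.02, and -1.14 in the L16 libraries. The L15 medians thus lay nearer to the wild type mean than the L16 medians, which lay apart from it, upward for one set and downward for the other. In such medians, genes above and below the wild type offset each other. Without sign, the log2 fold change of L15 against the wild type had a median of 0.51 over the differing genes and 0.38 over all tested genes. Of the differing genes, 33.6% passed the test of L15 against the wild type, where 15.4% of all tested genes did. The L15 libraries also entered the choice of these genes. L16 replicate 2 held the highest of the 3 L16 values in 64 of the 93 higher genes (68.8%), where it did in 30.7% of all tested genes, and without this library 26 higher genes were called.

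**Figure D2:**
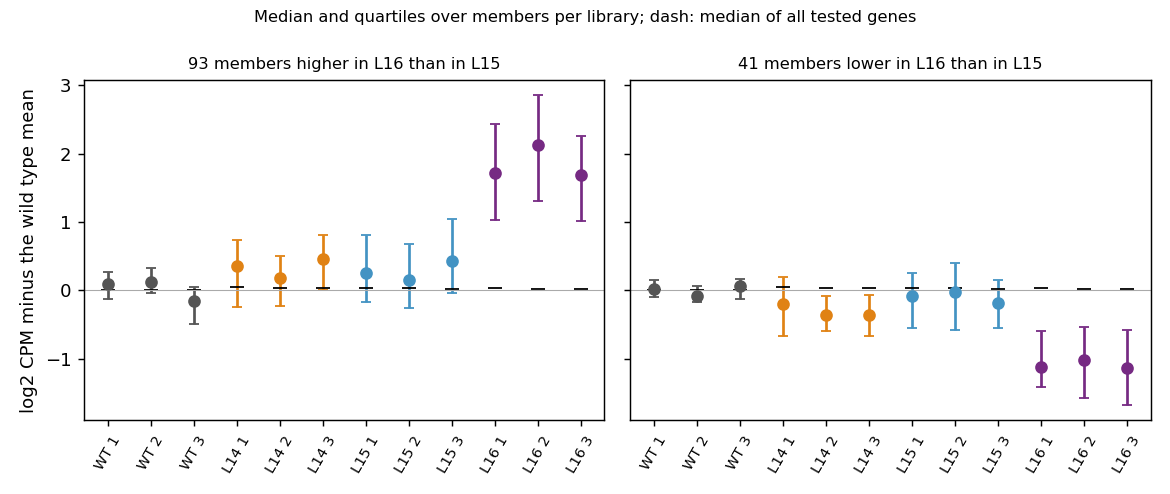
For each of the 12 libraries (WT, wild type), the point is the median over the differing genes of the log2 CPM minus the mean of the wild type libraries, the bars are the quartiles over these genes, and the dash is the median of all tested genes. The 3 L16 libraries stand at 1.69 to 2.13 for the higher genes (left) and at -1.14 to -1.02 for the lower genes (right), while the L15 libraries stay between -0.19 and 0.44.

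The 4 genes printed by identifier are those with the largest change in each direction among the genes placed further from the wild type and among the others. Nitab4.5_0002239g0020 was the differing gene with the largest increase. It had 4, 2, and 2 counts in the L15 libraries (0.205, 0.0910, and 0.158 CPM) and 59, 81, and 41 counts in the L16 libraries (3.55, 4.07, and 2.62 CPM). Wild type libraries held 3, 0, and 4 counts and L14 libraries 1, 6, and 0 counts, so that the gene lay near the limit of detection in every library but those of L16. It passed the filter on low counts only through the L16 libraries. This favours a large increase, so that nothing is read from its rank, and its fold change rests on very few L15 counts. Its log2 fold change of L16 over L15 was 4.46 ± 0.76 (SE, n = 3 per line, edgeR adjusted p = 0.0117). This call was lost without L15 replicate 1 (adjusted p = 0.0722), without L15 replicate 2 (0.109), and without L16 replicate 2 (0.0838), with log2 fold changes of 4.78, 4.16, and 4.31. DESeq2 gave no adjusted p-value for this gene, and with a minimum of 50 counts it was not tested.

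Nitab4.5_0000021g0720 was estimated under the wild type level in L15 and above it in L16. It stood at 1.33, 0.864, and 1.74 CPM in the L15 libraries and at 9.03, 26.0, and 6.38 CPM in the L16 libraries, against 2.16, 1.58, and 2.02 CPM in the wild type. The L16 libraries were far apart, with replicate 2 the highest, and all 3 lay above the other 9. The log2 fold change was 3.44 ± 0.48 (SE, edgeR adjusted p = 0.00340), and the call held in all 12 fits that left out a library. L15 itself did not pass the test against the wild type (log2 fold change -0.58 ± 0.51, SE, adjusted p = 0.483), so that its place under the wild type is not resolved.

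Nitab4.5_0001474g0050 was the gene placed further from the wild type with the largest decrease. Its level was 19.8, 18.8, and 25.4 CPM in the wild type, 17.5, 16.4, and 14.0 CPM in L14, 14.7, 12.3, and 7.58 CPM in L15, and 3.55, 4.52, and 3.45 CPM in L16. The genotypes followed each other downward without overlap between L16 and L15 or between L15 and the wild type. L15 was lower than the wild type by a log2 fold change of -0.88 ± 0.21 (SE, edgeR adjusted p = 0.0126), and L16 was lower than L15 by a further -1.59 ± 0.23 (SE, adjusted p = 0.00425). The call between L16 and L15 held in all 12 fits that left out a library.

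Nitab4.5_0000929g0090 had the largest decrease of the differing genes, and it was estimated above the wild type level in L15 and under it in L16. It had 62, 82, and 31 counts in the L15 libraries (3.18, 3.73, and 2.45 CPM) and 19, 19, and 11 counts in the L16 libraries (1.14, 0.954, and 0.702 CPM), against 2.31, 3.28, and 2.41 CPM in the wild type. L15 and the wild type overlapped, and L16 lay under both. L15 did not pass the test against the wild type (log2 fold change 0.23 ± 0.31, SE, edgeR adjusted p = 0.664), so that its place above the wild type is not resolved. The log2 fold change of L16 over L15 was -1.74 ± 0.34 (SE, edgeR adjusted p = 0.0228). The call was lost in 5 of the 12 fits that left out a library, which were those without L15 replicate 1 (adjusted p = 0.112), L15 replicate 2 (0.170), L16 replicate 1 (0.0545), L16 replicate 2 (0.115), and L16 replicate 3 (0.0834), with log2 fold changes between -1.90 and -1.57.

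**Figure D3:**
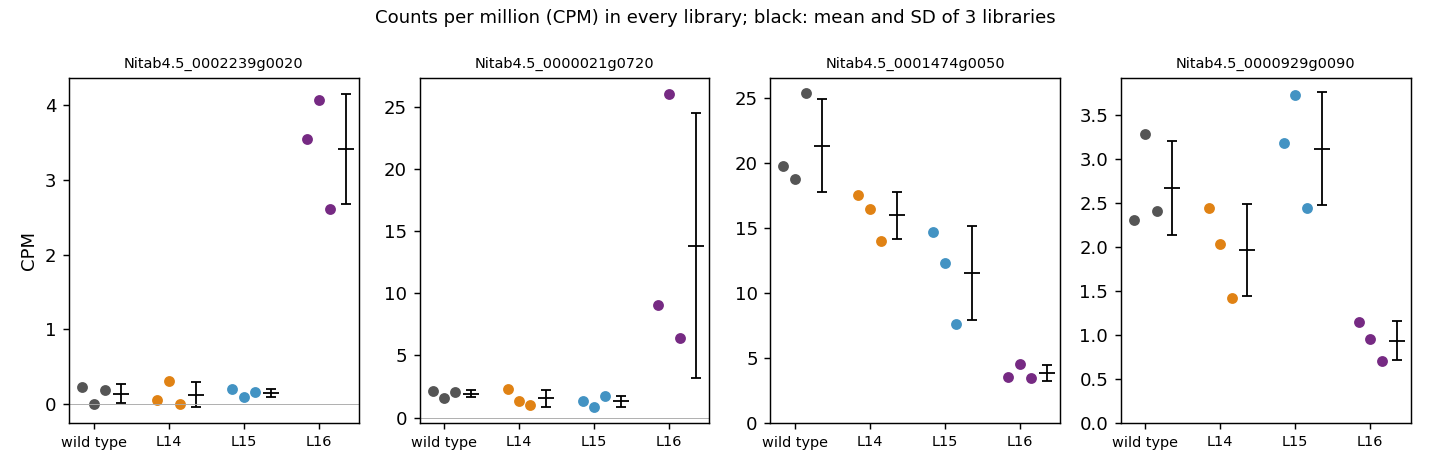
Points are single libraries in CPM on a linear axis that includes 0, in the order of the replicate numbers, and the black bars are the mean and SD of the 3 libraries of a genotype. The L16 libraries stand above all others in the first 2 panels and below all others in the last 2, and the L15 libraries lie apart from both wild type and L16 only for Nitab4.5_0001474g0050.

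Each differing gene was placed by its fitted log2 fold changes against the wild type. A gene was further from the wild type if L15 and L16 lay on the same side of it and L16 farther out, back towards it if L16 lay on the same side but nearer, and on the other side if the signs differed. Of the 134 genes, 83 (61.9%) were further from the wild type in L16, 4 (2.99%) were back towards it, and 47 (35.1%) were on the other side. Over all 18823 tested genes, these shares were 52.7%, 30.2%, and 17.1%. The placement rests on the same L15 and L16 libraries as the choice of the genes, so that no test was made of these shares. Against the wild type, 49 of the 83 genes placed further and 40 of the 47 on the other side did not pass the test in L15, and 16 and 19 of them lay within 1 standard error of it, so that the side of L15 is not resolved for many genes of either kind. Leaving out libraries moved the numbers and also the shares. The genes placed further numbered 15 without L15 replicate 1, 13 without L15 replicate 2, 55 without L15 replicate 3, 40 without L16 replicate 1, and 14 without L16 replicate 2. Their share was 46.7% without L16 replicate 2, where more genes lay on the other side than further, 50% without L15 replicate 1, 53.9% without L15 replicate 3, and 55.6% without L16 replicate 1. Those on the other side numbered 14 without L15 replicate 1, 8 without L15 replicate 2, 30 without L16 replicate 1, 16 without L16 replicate 2, and 71 without wild type replicate 3. The genes placed back were from 0 to 2 in each fit without a library of L15 or L16, against 4, being 1 without L15 replicate 1, 0 without L15 replicate 2, 2 without L15 replicate 3, 2 without L16 replicate 1, 0 without L16 replicate 2, and 2 without L16 replicate 3.

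Of the 83 genes placed further, 61 lay above and 22 below the wild type. The median absolute log2 fold change against the wild type was 0.60 in L15 and 2.02 in L16, and in 72 of the 83 genes (86.7%) the L16 value was at least 2 times that of L15, where it was in 34.9% of all tested genes placed further. The choice of genes with a large difference between the lines favours such a ratio, and nothing is read from it. All 83 passed the test against the wild type in L16, and 34 of them also did in L15, where 15.4% of all tested genes were called in L15 and 27.2% in L16. The 2 comparisons share the wild type libraries and those that chose the genes. A gene placed further has a larger change in L16 against the wild type than against L15. Its passing in L16 was thus nearly fixed by the choice of genes, and nothing is read from it. The 49 genes of the 83 that did not pass in L15 were called in L16 alone. Among the 61 genes above the wild type the medians were 0.69 in L15 and 2.14 in L16, and among the 22 below it they were -0.57 and -1.55.

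One gene with high counts differed in steps. It lay at 199, 173, and 67.7 CPM in the wild type, 491, 492, and 525 CPM in L15, and 1278, 1717, and 1955 CPM in L16, with no overlap between any of the 3 genotypes. Its log2 fold change was 1.78 ± 0.31 (SE) in L15 against the wild type and 1.72 ± 0.31 (SE) in L16 against L15 (edgeR adjusted p = 0.00134 and 0.0161). In contrast, a gene with nearly the same increase as Nitab4.5_0002239g0020, a log2 fold change of 4.44 ± 0.55 (SE, adjusted p = 0.00162), lay at 2.71, 2.05, and 10.6 CPM in L15 and at 107, 149, and 59.2 CPM in L16. In the wild type it lay at 5.70, 2.55, and 1.97 CPM, which overlapped L15. These genes were chosen after their values were seen.

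**Figure D4:**
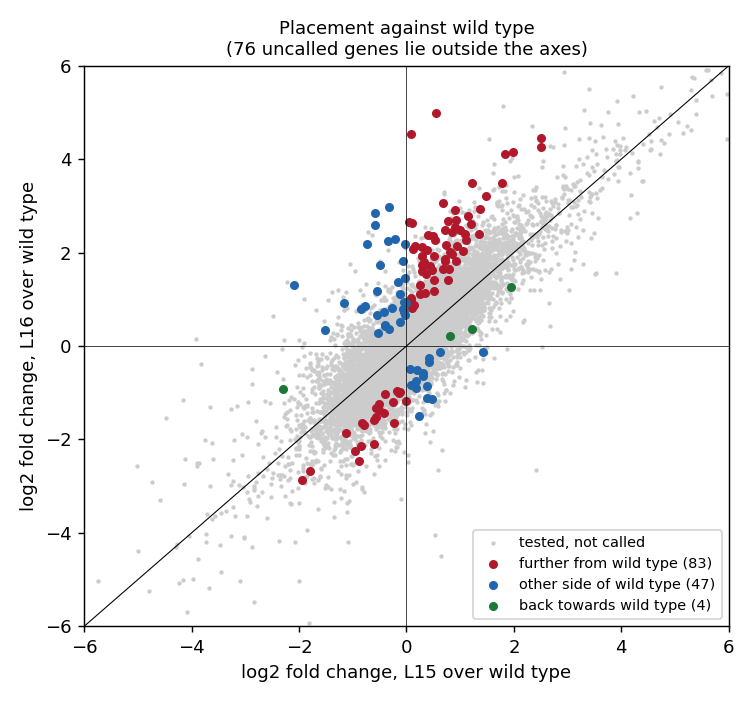
Each point is a tested gene, with the log2 fold change of L15 over the wild type on the horizontal axis and that of L16 over the wild type on the vertical axis. The line marks equal values, 76 genes that were not called lie outside the axes, and of the 134 differing genes 83 are further from the wild type (red), 47 on its other side (blue), and 4 back towards it (green).

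For most genes on the other side of the wild type, the deviation of L15 from it did not pass the test. Of the 47 genes, 31 lay above the wild type in L16 and under it in L15, and 16 lay the opposite way. In L16, 39 of the 47 genes passed the test against the wild type, where 27.2% of all tested genes did. Of the 3214 tested genes on the other side, 88 did. The same L16 libraries entered the choice of the 47 genes, which favours this count. The medians of the 31 genes were a log2 fold change of -0.35 in L15 and 0.93 in L16, and those of the 16 genes were 0.31 and -0.69. Of the 6 genes with an increase of more than 8-fold, 4 were placed on the other side and 2 further from the wild type.

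In 3 of these 47 genes L15 and L16 both passed the test against the wild type, with opposite signs. The first was the gene with the smallest adjusted p-value of the comparison (edgeR, 1.43e-04). It lay at 103, 99.1, and 74.9 CPM in the wild type, at 19.6, 14.4, and 31.6 CPM in L15, and at 163, 314, and 209 CPM in L16. The 3 genotypes did not overlap, and L14 lay with L15, at 22.5, 19.3, and 35.6 CPM. The log2 fold change was -2.09 ± 0.30 (SE) in L15 against the wild type, 1.31 ± 0.28 (SE) in L16 against the wild type, and 3.40 ± 0.31 (SE) in L16 against L15. The second gene lay at 11.2, 9.66, and 8.81 CPM in the wild type, at 4.46, 3.50, and 5.37 CPM in L15, and at 17.5, 23.9, and 14.7 CPM in L16, again with L14 near L15 (3.64, 4.28, and 3.98 CPM). Its log2 fold change of L16 over L15 was 2.09 ± 0.22 (SE, adjusted p = 2.36e-04). The last of the 3 moved downward and by less, from 82.7, 80.8, and 84.1 CPM in L15 to 51.4, 48.5, and 45.5 CPM in L16, with the wild type between at 61.8, 54.1, and 68.0 CPM. Its log2 fold change of L16 over L15 was -0.77 ± 0.12 (SE, adjusted p = 0.00768), and that of L16 against the wild type was at the threshold (adjusted p = 0.0494).

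A return towards the wild type level was seen in 4 genes, 1 higher and 3 lower in L16 than in L15. All 4 passed the test against the wild type in L15, where 15.4% of all tested genes did. A gene placed back has a larger change in L15 against the wild type than between the lines. Its passing in L15 was thus nearly fixed by the choice of genes, and nothing is read from it. The gene that rose lay at 38.7, 64.7, and 46.0 CPM in the wild type, fell to 12.1, 9.87, and 8.21 CPM in L15, and stood at 22.0, 35.4, and 21.1 CPM in L16, still under every wild type library. Its log2 fold change of L16 over L15 was 1.37 ± 0.23 (SE, edgeR adjusted p = 0.0107). The first of the genes that fell lay at 122, 112, and 103 CPM in the wild type, 195, 187, and 207 CPM in L15, and 124, 137, and 129 CPM in L16. The L16 libraries lay just above those of the wild type, from which L16 did not differ by the test (log2 fold change 0.21 ± 0.12, SE, adjusted p = 0.189). The second lay at 9.70, 8.02, and 9.97 CPM in the wild type, 22.0, 20.7, and 21.5 CPM in L15, and 14.5, 11.7, and 9.13 CPM in L16, where L16 and the wild type overlapped (log2 fold change 0.35 ± 0.17, SE, adjusted p = 0.140). The last lay at 13.7, 18.5, and 17.2 CPM in the wild type, 60.2, 70.5, and 60.9 CPM in L15, and 42.0, 39.6, and 37.1 CPM in L16, and remained above the wild type in L16 by a log2 fold change of 1.26 ± 0.14 (SE, adjusted p = 1.40e-05).

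L14 lay with L15 for most of the differing genes. In 126 of the 134 genes (94.0%) the fitted level of L14 was nearer to L15 than to L16, where it was in 62.9% of all tested genes. This held for 92 of the 93 higher genes and for 34 of the 41 lower genes. L14 lay between L15 and L16 in 63 genes, on the far side of L15 in 71, and on the far side of L16 in 0, where all tested genes had shares of 32.4%, 43.5%, and 24.1%. The genes were chosen for a large distance between L15 and L16, which makes either line easier to tell apart from L14, and these counts are a description without a test. Tested directly, 113 of the 134 genes differed between L16 and L14, where 1.73% of all tested genes did, and this comparison shares the L16 libraries with the choice of the genes. Against the wild type, 43 of the 134 genes (32.1%) were called in L14, where 12.6% of all tested genes were. For L15 the count was 45 (33.6%), where 15.4% of all tested genes were called. For L16 it was 124 (92.5%), where 27.2% of all tested genes were called. The libraries of L15 and L16 also entered the choice of the genes, and those of L14 did so only through the filter, the scaling, and the spread. For the 134 genes, the absolute log2 fold change against the wild type had a median of 1.64 in L16, above the 0.51 of L15 and the 0.45 of L14, while over all tested genes it was 0.47, 0.38, and 0.37 in the same order.

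The spread between replicates was smaller for the lower genes than over all tested genes, and a test that passes genes of low spread favours this. The median coefficient of variation of the 93 higher genes was 20.0% in L16 and 20.7% in the wild type, and that of the 41 lower genes was 9.25% in L15 and 11.3% in L16. Over all tested genes it was 17.5% in L15, 21.6% in L16, and 22.2% in the wild type. In each of these sets the L16 value was under that of the wild type.

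The first number of a NiTAB identifier names the genome scaffold on which the gene lies, and genes on it are numbered in order. The 134 genes lay on 128 of the 2996 scaffolds that held a tested gene, and no scaffold held more than 2 of them. On 6 scaffolds there were 2 differing genes, which moved the same way on 5 of them. Among the tested genes of a scaffold, taken in order of number, there were 233 places next to a differing gene. Of these places 4 (1.72%) held a gene that differed itself, against 0.712% of all tested genes. Genes that were not tested were passed over, and a gene between 2 differing genes would count for each. These 4 genes form 2 pairs. In the first both genes were lower in L16 and placed further from the wild type, with log2 fold changes of -1.42 and -0.92 against L15. In the second both were higher and placed further, with 1.95 and 0.88. The counting program and its use of strand are not given in the sources used here, so that reads of overlapping neighbours cannot be told apart, and the values of genes with a near-identical copy, which are frequent in a tetraploid, are uncertain.

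The libraries also held synthetic spike-in RNAs, which the plant does not make. Of 62 spike-in sequences with at least 10 counts on average, 0 passed edgeR's quasi-likelihood test between L16 and L15 after adjustment, and 6 did at an unadjusted p under 0.05. Against the wild type, 15 of the 62 differed in L15 and 7 in L16, with a median absolute log2 difference of 0.21 and 0.26. The share of the spike-in SIRV4 among spike-in counts was lowest in the wild type, at 5.19% to 5.38%, against 6.34% to 7.33% in L15 and 6.50% to 7.77% in L16. The mean share of reads outside annotated genes was 37.1% ± 1.30 (SD, n = 3) in the wild type, above the means of both lines. The wild type libraries, at 35.6% to 38.1%, overlapped those of L15, at 34.6% to 36.4%. The L16 libraries, at 33.4% to 35.4%, lay under every wild type library. The wild type libraries enter the comparison of L16 with L15 through the filter, the scaling, and the spread, and they set the placement of every gene. The part of this difference in either was not tested.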

How the data were processed

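RNA of leaves from the wild type and the *DcLCYB1* lines L14, L15, and L16 was sequenced as QuantSeq 3' mRNA-Seq libraries from 500 ng of total RNA, with 3 libraries per genotype. The reads were mapped with STAR to NiTAB 4.5, and the values the authors deposited are unnormalized counts of reads for each gene in each library. The version of STAR and the counting program are not given in the sources used here. Of the deposited lines, 35519 were genes, 99 spike-ins, and 5 summary lines, and only genes entered the test. Counts listed as outside genes, between 33.4% and 38.1% of a library, and counts listed as not unique, between 19.1% and 21.4%, stayed out of the library sizes.

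Counts were tested with edgeR 4.0.16 in R 4.3.3, after filterByExpr (minimum of 10 counts) and TMM scaling, by the quasi-likelihood test fitted to all 12 libraries with a term for genotype and no other. Adjustment was by Benjamini-Hochberg over all tested genes, with a threshold of 0.05. A standard error is the size of the log2 fold change over the root of its F statistic. The study used DESeq2, which was an alternative here (version 1.42.0). CPM values, except those of the limit of detection, use the TMM library sizes, and log2 CPM a prior count of 2. The test was tested on simulated data. Group labels say biological replicates without stating whether libraries came from single plants, so p-values measure the spread between these libraries.

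The 4 identifiers were chosen among genes called between L16 and L15 without overlap of the lines and with 50 or more counts on average in the higher line, as the gene of largest absolute log2 fold change in each direction that was placed further from the wild type, and that which was not. The lines compared, the naming rule, and the alternatives were chosen with earlier results of these data known.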

Additional observations from a re-analysis of the deposited data

Results flagged for a closer look

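The difference from the wild type was not the same in L16 and L15 for 134 genes, by the test of the difference itself (edgeR's quasi-likelihood test, adjusted p-value under 0.05). Among them, the log2 fold change of L16 over L15 was 4.46 for Nitab4.5_0002239g0020, 3.44 for Nitab4.5_0000021g0720, -1.59 for Nitab4.5_0001474g0050, and -1.74 for Nitab4.5_0000929g0090. Spike-in sequences, which no comparison of genes uses, differed from the wild type libraries in 15 of 62 cases in L15 and in 7 of 62 in L16 by edgeR's quasi-likelihood test. Groups of 3 libraries are too small for a search for single libraries far from the others.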

How the results depend on the processing

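The alternatives changed how many genes differed. The 134 genes kept their direction in every alternative that tested them, and 132 of them were tested with a minimum of 50 counts. In 133 of the 134 genes the L16 and L15 libraries did not overlap. Their direction was thus nearly fixed by the choice of genes, and nothing is read from it. DESeq2's Wald test called 329 genes (206 higher and 123 lower in L16), of which 213 were further from the wild type, 11 back, and 105 on the other side. It called 132 of the 134 genes and gave no adjusted p-value for the 2 others. Without a filter on low counts, 440 genes differed (274 higher, 166 lower), with 287 further, 19 back, and 134 on the other side. With the 6 libraries of L15 and L16 alone, 203 genes differed (146 higher), with 133 further and 8 back. A minimum absolute log2 fold change of 1 left 83 genes by construction (13 lower), with 55 further, 1 back, and 27 on the other side. Without scaling factors, 21 genes were lower, 1 was back, and 30 were on the other side. Without the L14 libraries, 27 genes were lower and 1 was back. The share of genes placed further stayed between 61.8% and 67.3% in these alternatives, with the replicate block included, but between 46.7% and 65.4% when single libraries were left out.

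Libraries of L15 and L16 with the same replicate number deviated together by correlations of 0.16, 0.06, and 0.19, and each correlated best with its own number, as a hint from the data and not from the design. The numbers were not taken to pair the libraries. With the replicate block, 199 genes differed, of which 74 were lower in L16 and 134 were further from the wild type.

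Leaving out each of the 12 libraries in turn, from 21 to 185 genes differed, from 18 to 131 were higher, from 3 to 54 were lower, from 13 to 109 were further from the wild type, from 0 to 6 were back, and from 8 to 71 were on the other side. Fits without a library of L15 or L16 hold 2 libraries of that line. Low counts also limit the comparison, with 2 of 6027 genes under 2 CPM called.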
